A study of Mus musculus with 12 samples.

Results

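Thrombospondin 1 (Thbs1) and 3 surface proteins of its circuit, Cd36, Cd47 and Sirpa, were followed in mouse peritoneal macrophages that had met antibody-coated platelets. The 4 genes were taken by symbol from a table of raw counts with 34948 named rows, and all 4 passed the filter on low counts that left 16546 genes for testing. Thbs1 was chosen from its R300-to-blank fold changes in both genotypes, so its change with treatment is described here without a test. The receptors were chosen for their known ties to it.

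Thrombospondin 1 is a large secreted glycoprotein, stored in platelet granules and also made by macrophages, that binds cell surfaces and matrix and can release TGF-beta from its latent form. CD36 is a scavenger receptor for oxidised lipoproteins and long-chain fatty acids, and its ectodomain binds the type 1 repeats of thrombospondin 1. CD47 binds the carboxy-terminal part of thrombospondin 1, and it is also the "do not eat me" signal that engages SIRPA on phagocytes, where SIRPA recruits the phosphatases SHP-1 and SHP-2 and restrains engulfment, including that of platelets.

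Bulk RNA sequencing covered 12 libraries, 3 per group. The labels give the mice as male and 8 weeks old, and their peritoneal cells were taken 3 days after 3% Brewer thioglycolate, an irritant that draws leukocytes into the cavity, was injected there. KO denotes libraries labelled Mac-Ern1KO, named for loss of Ern1 (the endoplasmic reticulum stress sensor IRE1) in macrophages, with a Cre driver that the labels do not name. WT denotes those labelled Ern1fl/fl, a label that names the floxed allele only. R300 libraries came from cells kept for 2 h with platelets opsonised by R300, an antibody to platelet CD42. Blank libraries are labelled Con, with no statement of whether uncoated platelets or no platelets were added. The groups were therefore KO R300, KO blank, WT R300 and WT blank.

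The libraries held 21759259 to 44263362 counts on named genes. Ern1 was not lower in libraries labelled KO: KO R300 libraries averaged 211 ± 32.3 CPM, against 182 ± 38.6 CPM in WT R300 libraries, and KO blank libraries averaged 140 ± 21.5 CPM, against 108 ± 12.2 CPM in WT blank libraries (SD, n = 3 each; edgeR adjusted p = 1 for both). A count per gene can miss loss of part of a transcript, so every genotype statement here rests on the labels. Although the mice are labelled male, 8 libraries held Xist, the RNA of the inactive X chromosome, at 143 to 590 CPM beside Y-linked transcripts, and 4 libraries held at most 0.0741 CPM (KO R300 3, KO blank 3, WT R300 2 and WT blank 3). Those 4 libraries stand apart in several of the results. A pair of R300 libraries in each genotype was also unusually alike (KO R300 1 and 2, WT R300 1 and 3), with median chi-square values per gene of 1.53 and 1.37, against 6.14 to 10.1 for other pairs within groups. The labels call the 3 libraries of a group biological replicates. Values are TMM-normalised CPM (counts scaled to a common library total, with a correction for composition).

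In the GENCODE annotation of GRCm38 (mm10), Thbs1 lies on chr2:118111876-118127133 on the plus strand with 6073 exonic bases. Its neighbour on the other strand, the non-coding RNA gene Gm29233, shares 208 exonic bases with it, 3.42% of the Thbs1 exons. The library kit does not mark strand. Gm29233 itself had 0 to 5 counts per library, which does not tell how reads in the shared bases were assigned. Sirpa lies on the same chromosome at chr2:129592835-129632228, plus strand, with 4911 exonic bases. Its close relatives of the Sirpb1 group could share some reads with it. Cd36 spans chr5:17781690-17888801 on the minus strand with 3590 exonic bases, and Cd47 spans chr16:49800533-49915010 on the plus strand with 6276. RefSeq start-site windows were at hand for 2 of the 4 genes, the receptors Cd36 and Cd47, and are shown as the sequence context of those genes. Each window of GRCm38.p6 runs from 250 bases before to 50 bases after a RefSeq start, 5′ to 3′ on the gene's own strand. For each gene the window of lowest coordinate was taken. Both windows lie inside the gene spans given above and not at their 5′ ends. The Cd36 window is chr5:17835847-17836146 on the minus strand and the Cd47 window is chr16:49855404-49855703 on the plus strand. Capitals mark matches, on either strand, to the GC box with letters GGGCGG, to the CCAAT box and to the hypoxia response core with letters ACGTG.
Cd36 start-site window: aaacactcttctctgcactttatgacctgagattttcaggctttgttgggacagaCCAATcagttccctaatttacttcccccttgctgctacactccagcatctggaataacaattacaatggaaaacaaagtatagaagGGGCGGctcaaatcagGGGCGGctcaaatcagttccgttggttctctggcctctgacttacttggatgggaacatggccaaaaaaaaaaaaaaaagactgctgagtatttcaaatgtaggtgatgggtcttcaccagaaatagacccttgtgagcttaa
Cd47 start-site window: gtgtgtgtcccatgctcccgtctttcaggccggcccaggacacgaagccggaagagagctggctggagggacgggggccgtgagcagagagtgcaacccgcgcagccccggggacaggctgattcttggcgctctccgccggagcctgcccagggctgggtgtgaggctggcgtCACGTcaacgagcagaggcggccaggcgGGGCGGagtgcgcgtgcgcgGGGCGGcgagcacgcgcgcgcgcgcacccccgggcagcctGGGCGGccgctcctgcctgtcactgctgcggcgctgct
The Cd36 window was 43.0% G and C and held 2 GC boxes and 1 CCAAT box. The Cd47 window was 74.0% G and C and held 3 GC boxes and 1 hypoxia response core. Among 32851 windows of this length, 35.7% held a GC box, 37.4% held a CCAAT box and 19.6% held the hypoxia response core. Neither window held the cyclic AMP response element (letters TGACGTCA, in 1.79% of windows). Neither held the AP-1 site (letters TGACTCA, in 5.2% of windows). These matches describe letters and not bound sites.

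Thbs1, the ligand of the circuit, was among the most abundant transcripts of macrophages given coated platelets. It reached 34469, 30466 and 9852 CPM in KO R300 1, 2 and 3, against 3967, 2186 and 1578 CPM in KO blank 1, 2 and 3. WT R300 1, 2 and 3 had 20693, 7448 and 20391 CPM, against 1800, 1510 and 1122 CPM in WT blank 1, 2 and 3. The lowest R300 library, WT R300 2, was still above the highest blank library, KO blank 1. Group means were 24930 ± 13200 CPM for KO R300, against 2577 ± 1240 CPM for KO blank, and 16180 ± 7560 CPM for WT R300, against 1477 ± 340 CPM for WT blank (SD, n = 3 each). As a description of the values that led to its choice, the fitted R300-to-blank fold was 9.67 in KO (log2 3.27, SE 0.56) and 10.9 in WT (log2 3.45, SE 0.56). In these comparisons 0.834% of the 16546 genes were called in KO and 0.623% in WT at a Benjamini-Hochberg adjusted p under 0.05 in edgeR's quasi-likelihood test.

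**Figure D1:**
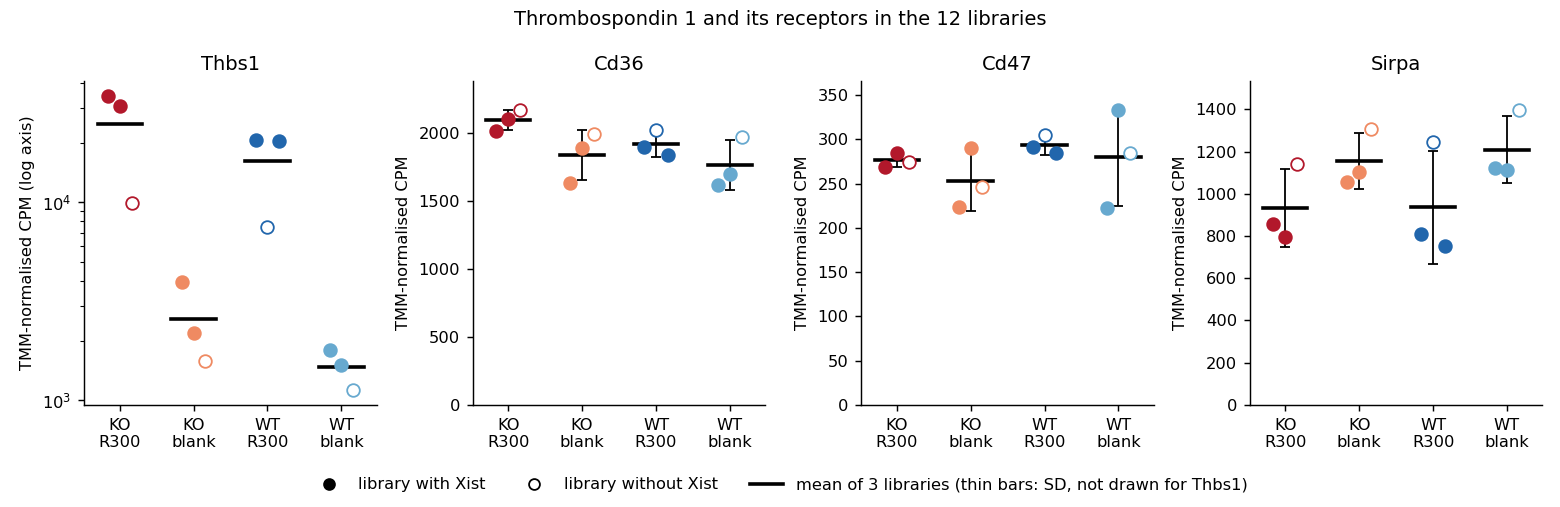
TMM-normalised CPM of the 4 genes in each of the 12 libraries, by group, with a log axis for Thbs1 and linear axes from 0 for the others. Points are libraries (open where Xist was at or under 0.0741 CPM), thick lines are means of 3 and thin bars are SDs, not drawn for Thbs1. The 6 R300 libraries sit between 7448 and 34469 CPM for Thbs1, above the 6 blank libraries at 1122 to 3967 CPM, while Cd36 and Cd47 overlap between most groups.

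As a share of all counts on named genes, Thbs1 took 3.331%, 3.053% and 0.957% in KO R300 1, 2 and 3, against 0.428%, 0.214% and 0.160% in KO blank 1, 2 and 3. It took 2.053%, 0.708% and 2.062% in WT R300 1, 2 and 3, against 0.191%, 0.151% and 0.110% in WT blank 1, 2 and 3. Exact binomial 95% intervals of these shares were narrow, for example 3.325% to 3.338% in KO R300 1, and cover counting error only. By counts it ranked 1 of all genes in KO R300 1 and 2 and WT R300 1 and 3, 6 in KO R300 3 and 9 in WT R300 2. In the blank libraries its rank ran from 11 in KO blank 1 to 87 in WT blank 3.

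The R300-to-blank fold of Thbs1 means was smaller in libraries without Xist, a description with too few libraries for a test. The R300 libraries with Xist were the near-alike pair of each genotype. The KO blank libraries with Xist differed from each other, at 3967 and 2186 CPM, so the KO fold depends on which of them is used. Between libraries without Xist, 1 against 1, R300 over blank was 6.24-fold in KO and 6.64-fold in WT. Between libraries with Xist, 2 against 2, it was 10.6-fold in KO (means 32470 and 3076 CPM) and 12.4-fold in WT (means 20540 and 1655 CPM). Summed transcripts of 13 marker genes of resident peritoneal macrophages (led by Saa3, Cd5l and Prg4) moved with that split. They came to 1491, 1512 and 390 CPM in KO R300 1, 2 and 3, and to 1317, 1107 and 320 CPM in KO blank 1, 2 and 3. They came to 1084, 365 and 1018 CPM in WT R300 1, 2 and 3, and to 982, 808 and 317 CPM in WT blank 1, 2 and 3. None of the 13 was called between R300 and blank in either genotype (edgeR adjusted p under 0.05), and the part of cell composition in the Thbs1 values was not tested. In bulk RNA, more cells of a type and more RNA per cell cannot be told apart.

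With 1 library kept from each near-alike pair, the Thbs1 log2 fold was 3.11 in KO and 3.25 in WT. It ran from 2.97 to 3.73 in KO and from 3.24 to 3.80 in WT as each of the 12 libraries was left out. Thbs1 itself was a large part of the R300 libraries. Leaving it out of the normalisation factors gave 3.27 in KO and 3.45 in WT. TMM already sets aside genes with extreme ratios, so this setting could hardly move the values and does not test an effect of composition.

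Platelets carry thrombospondin 1 protein, and the platelets added to the R300 cells can bring RNA with them. The summed level of 19 platelet and megakaryocyte genes was 259 to 267 CPM in KO R300 against 220 to 255 CPM in KO blank. It was 237 to 254 CPM in WT R300 against 176 to 239 CPM in WT blank, with KO R300 above KO blank without overlap. The most abundant of them were Vwf, Pf4 and Selp, and 3 of the listed genes (Vwf, Selp and Itgb3) also stand in lists of other cells or receptors. The platelet glycoprotein genes Gp9, Gp5 and Gp6 and the platelet tubulin gene Tubb1 were at or under 0.519 CPM in every library, and Itga2b, the platelet integrin alpha IIb, was at 1.73 to 3.08 CPM. Clec1b, the platelet receptor CLEC-2, was low, at 0.985 to 2.12 CPM in KO R300 against 0.208 to 0.956 CPM in KO blank, and 0.657 to 1.79 CPM in WT R300 against 0.338 to 0.593 CPM in WT blank, with no overlap in either genotype. Rab27b, a GTPase of granule release, was at 0.731 to 1.34 CPM in KO R300 against 0.382 to 0.623 CPM in KO blank, and it overlapped in WT. R300 libraries lay above blank libraries without overlap for 6.64% of all genes in KO and 6.74% in WT. Of the 14 tested genes of the list, 9 in KO and 10 in WT had a positive log2 fold change (median 0.19 in KO and 0.36 in WT), and edgeR called 0 in each. The part of platelet RNA in the Thbs1 values was not tested.

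Mesothelial cells and fibroblasts also make thrombospondin 1. Their 17 markers summed to 424, 933 and 403 CPM in KO R300 1, 2 and 3, against 525, 393 and 423 CPM in KO blank 1, 2 and 3. They summed to 783, 218 and 1547 CPM in WT R300 1, 2 and 3, against 740, 175 and 207 CPM in WT blank 1, 2 and 3. The ranges of R300 and blank libraries overlapped in both genotypes, and WT R300 3 had the highest sum. The most abundant genes of the list were Col1a2, Col1a1 and Sparc, and 15 of 16 tested members had a positive R300 log2 fold change in each genotype (median 0.41 in KO and 1.1 in WT), with 0 called. The part of these cells in the Thbs1 values was not tested.

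**Figure D2:**
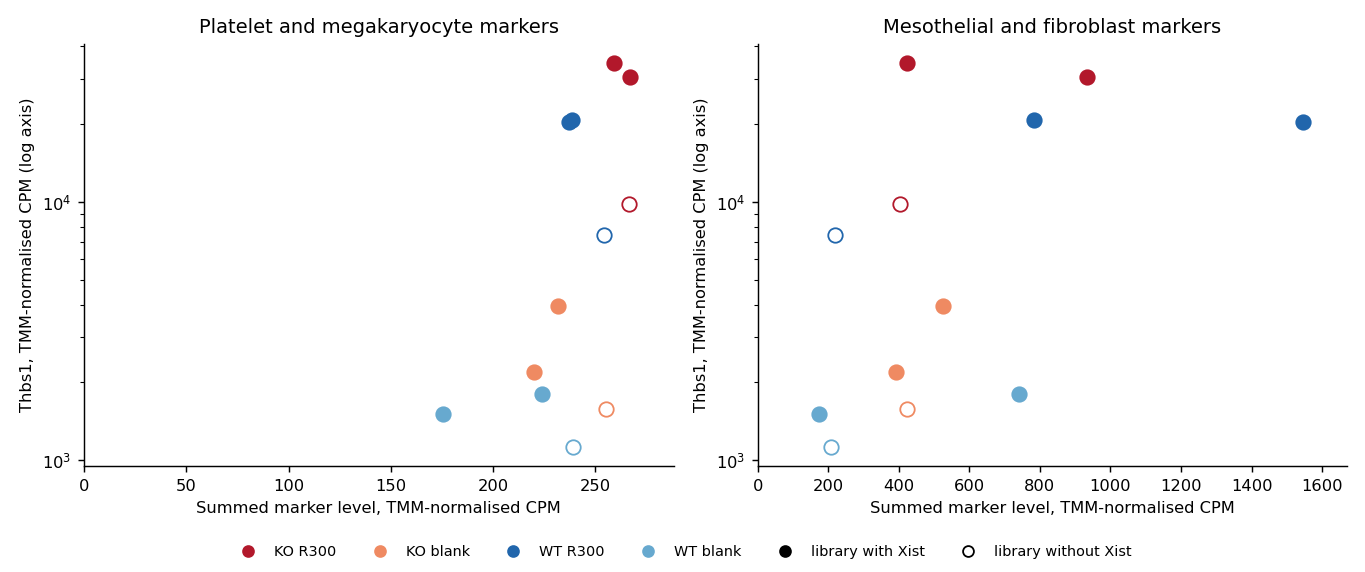
Thbs1 (log axis, TMM-normalised CPM) against the summed CPM of 19 platelet and megakaryocyte genes (left) and 17 mesothelial and fibroblast genes (right), 1 point per library. Mesothelial and fibroblast sums run from 218 to 1547 CPM in R300 libraries and from 175 to 740 CPM in blank libraries, and platelet sums from 237 to 267 CPM in R300 libraries and from 176 to 255 CPM in blank libraries.

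Genes that define macrophages were abundant. Csf1r was at 1500 to 2270 CPM and Adgre1 (F4/80) at 566 to 705 CPM over the 12 libraries. Cd14, a co-receptor for lipopolysaccharide, was at 1550 to 3460 CPM in KO R300 against 524 to 1280 CPM in KO blank, and at 1480 to 2650 CPM in WT R300 against 597 to 1450 CPM in WT blank. These ranges did not overlap, and R300 was the higher without overlap for 6.64% of all genes in KO and 6.74% in WT. The Cd14 differences did not pass the test (log2 1.67 in KO and 1.32 in WT, edgeR adjusted p = 0.166 and 0.352). Lyz2, a lysozyme gene of myeloid cells, had 6050 to 7310 CPM in KO libraries against 12200 to 13500 CPM in WT libraries over both treatments. KO over WT gave Lyz2 a log2 difference of -0.82 in R300 libraries (edgeR adjusted p = 0.308) and -0.95 in blank libraries (edgeR adjusted p = 0.0779).

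The Thbs1 difference between genotypes did not pass the test in either treatment. Blank KO libraries had a fitted log2 difference of 0.80 from blank WT libraries (SE 0.51, 95% interval -0.33 to 1.93, edgeR adjusted p = 1), and their ranges overlapped. KO was the higher in each of the 3 same-numbered blank pairs. Among same-numbered R300 libraries KO was the higher for 1 and 2, but KO R300 3 had 9852 CPM against 20391 CPM in WT R300 3. It was not established that libraries pair by number. R300 KO libraries had a log2 difference of 0.62 from R300 WT libraries (SE 0.51, 95% interval -0.50 to 1.75, edgeR adjusted p = 1). In these comparisons 0% of genes were called, with 1.09% at an unadjusted p under 0.05 for blank KO against blank WT and 1.96% for R300 KO against R300 WT, and DESeq2 called 4 and 14 genes. Split by Xist, KO over WT was 1.41-fold without and 1.86-fold with Xist in blank libraries, and 1.32-fold without and 1.58-fold with Xist in R300 libraries. KO was the higher in each of these 4 pairs of means.

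Over both treatments, the mean log2 CPM of Thbs1 was 12.82 in KO and 12.17 in WT, a difference of 0.65. An exact two-sided permutation of genotype within treatment gave p = 0.155 over 400 arrangements, where 0.005 is the smallest p possible, and 1 such test was run for each of the 4 genes. As each of the 12 libraries was left out, the difference ran from 0.40 without WT R300 2 (exact permutation p = 0.37) to 0.93 without KO R300 3 (exact permutation p = 0.03). Both of these libraries were without Xist, and leaving out either leaves a near-alike pair as its group. The p was under 0.05 only without KO R300 3. With only the libraries that held Xist it was 0.75, with an exact permutation p of 0.0556, the smallest that so few libraries allow. The R300 response of Thbs1 differed between KO and WT by a log2 value of -0.18 (SE 0.72, 95% interval -1.77 to 1.41). That interval spans both a smaller and a larger response in KO. The value is the difference of the folds by which Thbs1 was chosen, so it is a description and not a test. For that interaction 0% of genes were called by edgeR, 0.574% at an unadjusted p under 0.05, and DESeq2 called 0.

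In order of level, Thbs1 ran KO R300, WT R300, KO blank and WT blank. The R300 groups overlapped each other, as did the blank groups, and the gap lay between WT R300 and KO blank. Per kilobase of exon, which allows levels of different genes to be set side by side, Thbs1 averaged 4100 CPM per kb in KO R300 and 424 in KO blank, and 2660 in WT R300 and 243 in WT blank. On this scale Cd36 averaged 583, 512, 534 and 490 CPM per kb in KO R300, KO blank, WT R300 and WT blank. Sirpa averaged 190, 235, 191 and 246 CPM per kb, and Cd47 averaged 44.0, 40.4, 46.8 and 44.6 CPM per kb in the same groups. On average Thbs1 was above Cd36 per kilobase in both R300 groups and below it in both blank groups.

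Cd36, the scavenger receptor, was abundant in every library, and its differences did not pass the test. It had 2013, 2101 and 2162 CPM in KO R300 1, 2 and 3, against 1633, 1889 and 1988 CPM in KO blank 1, 2 and 3. It had 1898, 2020 and 1833 CPM in WT R300 1, 2 and 3, against 1616, 1696 and 1969 CPM in WT blank 1, 2 and 3. The KO libraries did not overlap between R300 and blank, although the gap was only that between 2013 and 1988 CPM, and the WT libraries overlapped. Libraries not overlapping with R300 the higher were found for 6.64% of genes in KO. The fitted log2 fold change was 0.19 in KO (SE 0.12, 95% interval -0.07 to 0.44, edgeR adjusted p = 0.778) and 0.12 in WT (SE 0.12, 95% interval -0.13 to 0.38, edgeR adjusted p = 0.87). Within both classes of library the direction held, at 1.09-fold without and 1.17-fold with Xist in KO, and 1.03-fold and 1.13-fold in WT.

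Between genotypes, Cd36 gave a log2 difference of 0.13 in R300 libraries (95% interval -0.13 to 0.38) and 0.06 in blank libraries (95% interval -0.19 to 0.32), KO over WT, with an edgeR adjusted p of 1 for both. Over both treatments the difference was 0.09 with an exact permutation p of 0.155. The Thbs1-to-Cd36 ratio of CPM was 17.1, 14.5 and 4.56 in KO R300 1, 2 and 3, against 2.43, 1.16 and 0.794 in KO blank 1, 2 and 3. It was 10.9, 3.69 and 11.1 in WT R300 1, 2 and 3, against 1.11, 0.89 and 0.57 in WT blank 1, 2 and 3. The R300 and blank ranges of this ratio did not overlap in either genotype, which follows from the Thbs1 values.

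Cd47, the other receptor and the ligand of SIRPA, was the least abundant of the 4. It had 269, 285 and 275 CPM in KO R300 1, 2 and 3, against 223, 290 and 247 CPM in KO blank 1, 2 and 3. It had 291, 305 and 285 CPM in WT R300 1, 2 and 3, against 223, 333 and 285 CPM in WT blank 1, 2 and 3. The R300 libraries of each genotype lay close together, with SDs of 7.93 CPM in KO and 10.7 CPM in WT, and within the range of the blank libraries, whose SDs were 33.9 CPM in KO and 55.0 CPM in WT. The log2 fold change was 0.13 in KO (SE 0.14, 95% interval -0.19 to 0.44, edgeR adjusted p = 0.946) and 0.07 in WT (SE 0.14, 95% interval -0.24 to 0.38, edgeR adjusted p = 0.961). The WT value changed sign, to -0.08, without WT blank 1.

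Cd47 had a log2 difference of -0.09 between R300 KO and R300 WT libraries (95% interval -0.40 to 0.22) and of -0.15 between blank KO and blank WT libraries (95% interval -0.46 to 0.17), with an edgeR adjusted p of 1 for both. Over both treatments the difference was -0.11 with an exact permutation p of 0.255. The Thbs1-to-Cd47 ratio shifted as that to Cd36 did, which again follows from the Thbs1 values. Thbs1 was 128, 107 and 35.9 times Cd47 in KO R300 1, 2 and 3, against 17.8, 7.53 and 6.4 times in KO blank 1, 2 and 3. In WT R300 1, 2 and 3 it was 71.1, 24.4 and 71.7 times Cd47, against 8.07, 4.54 and 3.94 times in WT blank 1, 2 and 3.

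Sirpa, the inhibitory receptor for CD47, had lower means with coated platelets in both genotypes without passing the test. It had 857, 796 and 1142 CPM in KO R300 1, 2 and 3, against 1057, 1103 and 1309 CPM in KO blank 1, 2 and 3. It had 811, 1245 and 753 CPM in WT R300 1, 2 and 3, against 1122, 1112 and 1395 CPM in WT blank 1, 2 and 3. In each group the library without Xist was the highest, and it alone made the R300 and blank ranges overlap. The means were 932 ± 185 CPM in KO R300 against 1156 ± 134 CPM in KO blank, and 936 ± 269 CPM in WT R300 against 1210 ± 160 CPM in WT blank (SD, n = 3 each).

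The fitted log2 fold change of Sirpa was -0.31 in KO (SE 0.21, 95% interval -0.77 to 0.14, edgeR adjusted p = 0.81) and -0.37 in WT (SE 0.21, 95% interval -0.83 to 0.09, edgeR adjusted p = 0.692). Among libraries with Xist, 2 against 2, R300 was 0.765-fold of blank in KO and 0.7-fold in WT, with no overlap. At that number 21.1% of genes in KO and 22.4% in WT had R300 libraries below the blank libraries without overlap. Without Xist, 1 against 1, R300 was 0.873-fold of blank in KO and 0.892-fold in WT. A fit with a term for the libraries without Xist gave -0.32 in KO (edgeR adjusted p = 0.118) and -0.39 in WT (edgeR adjusted p = 0.0701). Over 22 alternative settings the direction held in 22 in each genotype, with an edgeR adjusted p from 0.118 to 1 in KO and from 0.0701 to 1 in WT.

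**Figure D3:**
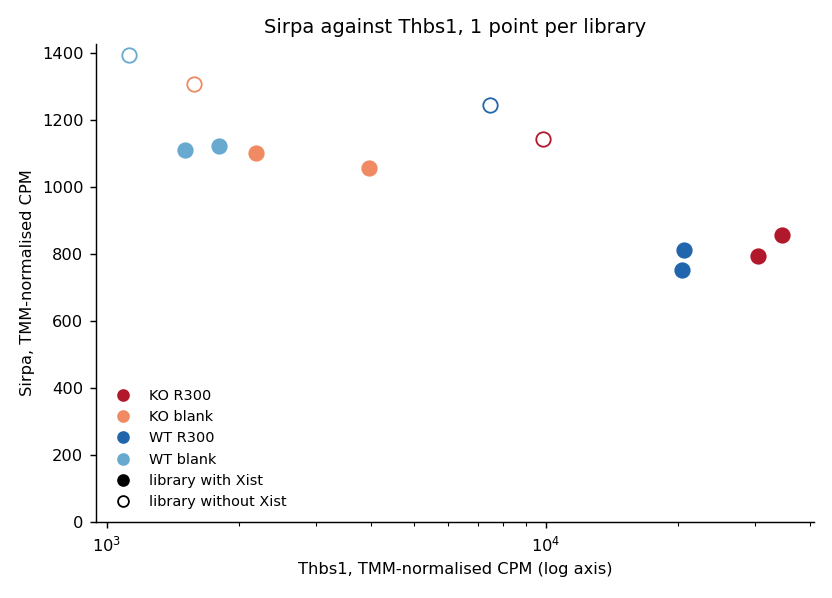
Sirpa (linear axis from 0) against Thbs1 (log axis) in TMM-normalised CPM, 1 point per library, coloured by group and open where Xist was at or under 0.0741 CPM. The 4 R300 libraries with Xist have Sirpa at 753 to 857 CPM and Thbs1 at 20391 to 34469 CPM, while the 4 libraries without Xist lie higher on the Sirpa axis, at 1142 to 1395 CPM.

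The ratio of Cd47 to Sirpa, signal to receptor, was 0.314, 0.358 and 0.24 in KO R300 1, 2 and 3, against 0.211, 0.263 and 0.188 in KO blank 1, 2 and 3. It was 0.359, 0.245 and 0.378 in WT R300 1, 2 and 3, against 0.199, 0.299 and 0.204 in WT blank 1, 2 and 3. The ranges overlapped in both genotypes. Both genes are read from the bulk RNA of a library, whose cells of origin were not separated, so the ratio does not measure CD47 on platelets. Between genotypes Sirpa had log2 differences of -0.01 in R300 libraries (95% interval -0.46 to 0.45) and -0.07 in blank libraries (95% interval -0.52 to 0.39), KO over WT, with an edgeR adjusted p of 1 for both. Over both treatments the difference was -0.03 with an exact permutation p of 0.81.

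Of the 3 receptors, 0 were called in KO and 0 in WT for R300 against blank, and 0 between genotypes in either treatment. The R300 response of KO less that of WT was, as a log2 value, 0.07 for Cd36 (95% interval -0.30 to 0.43), 0.06 for Cd47 (95% interval -0.38 to 0.50) and 0.06 for Sirpa (95% interval -0.59 to 0.70), with an edgeR adjusted p of 1 for all 3.

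**Figure D4:**
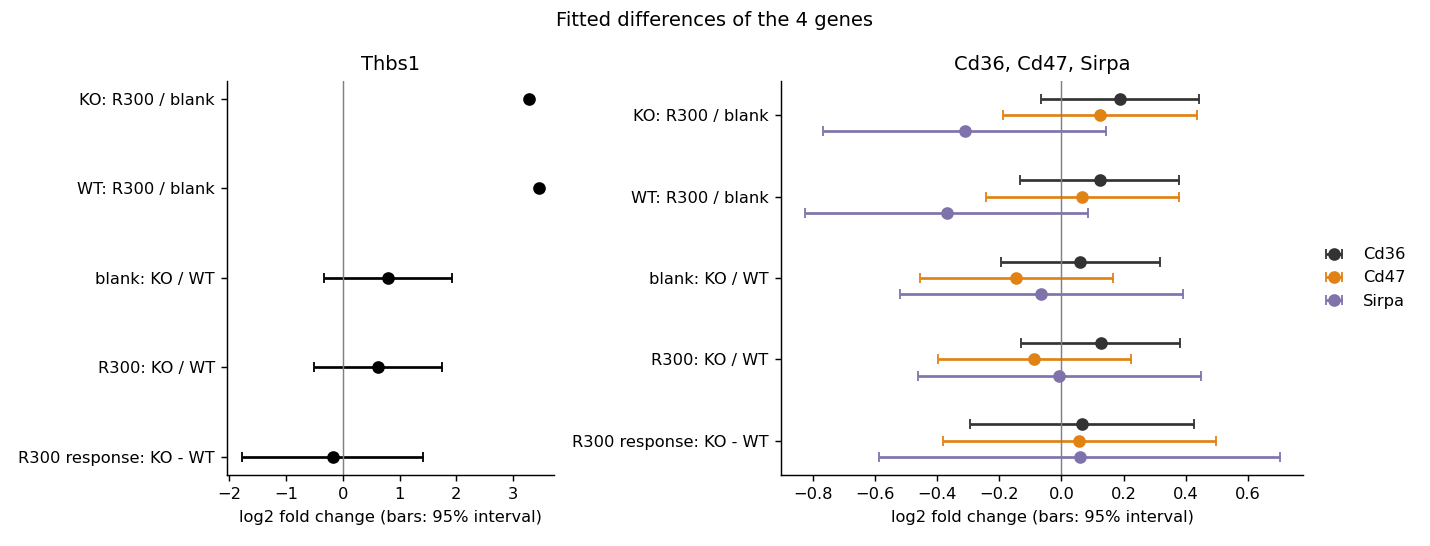
Fitted log2 differences (points) with 95% intervals (bars) of Thbs1 (left) and of Cd36, Cd47 and Sirpa (right) in the 5 comparisons, with a line at 0. For Thbs1, R300 over blank is at 3.27 in KO and 3.45 in WT, the values by which it was chosen, drawn without intervals. Its R300 response of KO less that of WT is the difference of those values and is a description. The intervals of the 3 receptors include 0 in each comparison.

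Other genes of the pathway were read from lists. The remaining thrombospondin family, Thbs2, Thbs3, Thbs4 and Comp, was at 8.41 CPM or less in every library, and 0 of 4 were called in KO or WT. All 4 had a positive R300 log2 fold change in each genotype (median 0.53 in KO and 1.13 in WT). Comp, a cartilage thrombospondin, averaged 3.75 CPM in KO R300 against 2.10 CPM in KO blank, and 5.06 CPM in WT R300 against 2.07 CPM in WT blank (edgeR adjusted p = 0.338 in KO and 0.113 in WT).

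Among 14 tested genes for other thrombospondin 1 receptors and for its clearance, 0 were called in either genotype, with a median log2 fold change of 0.03 in KO and 0.11 in WT, beside -0.004 and -0.005 over all genes. Lrp1, the endocytic receptor that clears thrombospondin 1, averaged 3312 CPM in KO R300 against 3244 CPM in KO blank, and 3312 CPM in WT R300 against 3139 CPM in WT blank. Sdc1, a heparan sulfate proteoglycan, averaged 577 CPM in KO R300 against 303 CPM in KO blank (log2 0.93, edgeR adjusted p = 0.345). In WT it averaged 725 CPM with R300 against 341 CPM in blank (log2 1.09, edgeR adjusted p = 0.277). Every R300 library lay above every blank library of its genotype for Sdc1, as it did for 6.64% of genes in KO and 6.74% in WT.

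Of 19 genes of CD47-SIRPA signalling and of related inhibitory receptors, 0 were called in KO or WT. Their median log2 fold change was -0.36 in KO and -0.38 in WT, and 3 of 19 in KO and 5 of 19 in WT were positive, where 49.3% and 49.1% of all genes were. Markers of B cells, recruited monocytes, neutrophils, and T and NK cells also had negative medians in both genotypes, while those of other leukocytes did not all do so. Neutrophil markers had a median of -0.267 in KO (3 of 9 positive) and -0.315 in WT (1 of 9). T and NK cell markers had a median of -0.16 in KO (3 of 12 positive) and -0.129 in WT (5 of 12). Of 9 tested eosinophil and mast cell markers, 8 were positive in each genotype (median 0.68 in KO and 1.03 in WT). Dendritic cell markers had a median of -0.18 in KO and 0.11 in WT. The eosinophil and mast cell list and the dendritic cell list each had 1 gene called higher in each genotype. Higher calls made up 0.695% of all genes in KO and 0.55% in WT. Of 13 B cell markers (led by Ighm, Cd22 and Cd79a), 0 were positive in either genotype (median -0.78 in KO and -1.09 in WT), and they summed to 120 to 145 CPM in KO R300 against 157 to 307 CPM in KO blank, and to 92.5 to 112 CPM in WT R300 against 93.9 to 333 CPM in WT blank. Of 11 tested markers of recruited monocytes (led by Vcan, F13a1 and Chil3), 3 in KO and 0 in WT were positive (median -0.18 in KO and -0.41 in WT). All 12 listed genes summed to 558 to 967 CPM in KO R300 against 603 to 1170 CPM in KO blank, and to 516 to 611 CPM in WT R300 against 525 to 1223 CPM in WT blank. No gene of the B cell or recruited monocyte list was called, and the part of any of these cells in the values of the CD47-SIRPA list was not tested. Fgr, a Src family kinase, averaged 226 CPM in KO R300 against 306 CPM in KO blank, and 223 CPM in WT R300 against 310 CPM in WT blank (edgeR adjusted p = 0.169 in KO and 0.145 in WT). Ptpn6, which encodes SHP-1, averaged 173 CPM in KO R300 against 223 CPM in KO blank, and 158 CPM in WT R300 against 224 CPM in WT blank (edgeR adjusted p = 0.606 in KO and 0.357 in WT). For both genes every R300 library lay below every blank library of its genotype. Libraries not overlapping with R300 the lower were found for 5.68% of genes in KO and 6.09% in WT.

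The list for CD36 regulation, its partners and lipid uptake had 0 of 20 genes called in each genotype, with a median log2 fold change of 0.005 in KO and 0.05 in WT. Abca1, the cholesterol efflux transporter, averaged 1729 CPM in KO R300 against 730 CPM in KO blank (log2 1.24, edgeR adjusted p = 0.151). In WT it averaged 1479 CPM with R300 against 739 CPM in blank (log2 1.00, edgeR adjusted p = 0.333). Acsl1, which activates fatty acids with coenzyme A, averaged 60.4 CPM in KO R300 against 96.6 CPM in KO blank, and 68.9 CPM in WT R300 against 102 CPM in WT blank (edgeR adjusted p = 0.124 in KO and 0.268 in WT). Plin2, the lipid droplet coat protein, averaged 932 CPM in KO R300 against 929 CPM in KO blank (edgeR adjusted p = 0.999).

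TGF-beta ligands, activators and targets numbered 21 tested genes, of which 1 rose in each genotype, and it was Lrrc32 (GARP), the membrane protein that holds latent TGF-beta on the cell surface. Higher calls made up 0.695% of all genes in KO and 0.55% in WT. Lrrc32 averaged 67.3 CPM in KO R300 against 8.03 CPM in KO blank (log2 3.06, SE 0.40, edgeR adjusted p = 0.00449), with libraries at 31.4 to 92.0 against 5.13 to 11.2 CPM. In WT it averaged 60.8 CPM with R300 against 10.1 CPM in blank (log2 2.60, SE 0.39, edgeR adjusted p = 0.0149), with libraries at 45.3 to 72.3 against 8.74 to 11.1 CPM. The WT call was lost without WT blank 1, 2 or 3, without WT R300 1 or 3, with no filter on low counts (edgeR adjusted p = 0.0646) and with 1 library of each near-alike pair (edgeR adjusted p = 0.122), and over alternatives its adjusted p ran from 8.61e-09 to 0.122. The KO call was lost with 1 library of each near-alike pair (edgeR adjusted p = 0.0503) and with only the compared groups fitted (0.0783), over a range from 1.03e-12 to 0.0783.

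The median log2 fold change of the TGF-beta list was 0.29 in KO and 0.33 in WT. Tgfb1, the ligand that thrombospondin 1 can activate, averaged 720 CPM in KO R300 against 524 CPM in KO blank (log2 0.46, edgeR adjusted p = 0.327), and 669 CPM in WT R300 against 534 CPM in WT blank (log2 0.33, edgeR adjusted p = 0.605). Smad7, an inhibitor that TGF-beta induces, averaged 42.2 CPM in KO R300 against 24.0 CPM in KO blank, and 43.4 CPM in WT R300 against 25.3 CPM in WT blank (edgeR adjusted p = 0.256 in KO and 0.339 in WT). Neither passed the test.

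Among 13 clotting and fibrinolysis genes of macrophages, 2 rose in KO (Thbd and Procr) and 1 rose in WT (Thbd). Over all genes, higher calls made up 0.695% in KO and 0.55% in WT, and the list was chosen with earlier results of these data known. Thbd, thrombomodulin, the cofactor with which thrombin activates protein C, averaged 104 CPM in KO R300 against 22.8 CPM in KO blank (log2 2.18, SE 0.34, edgeR adjusted p = 0.0144). In WT it averaged 79.7 CPM with R300 against 20.2 CPM in blank (log2 1.98, SE 0.34, edgeR adjusted p = 0.0291). Procr, the endothelial protein C receptor, averaged 39.0 CPM in KO R300 against 21.6 CPM in KO blank (log2 0.85, SE 0.17, edgeR adjusted p = 0.0455). In WT it averaged 45.3 CPM with R300 against 27.6 CPM in blank (log2 0.72, SE 0.17, edgeR adjusted p = 0.115).

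These calls depended on the setting. The Thbd call held in 14 of 22 alternatives in KO (edgeR adjusted p from 5.84e-08 to 0.121) and in 13 of 22 in WT (2.48e-06 to 0.218). It was lost without KO blank 1, 2 or 3 or KO R300 1 or 2 in the KO comparison, and without WT blank 1, 2 or 3, WT R300 1 or 3 or KO R300 2 in the WT comparison. The Procr call in KO held in 8 of 22 alternatives (edgeR adjusted p from 0.000816 to 0.294), and Procr was called in WT in 5 of 22.

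Among 12 tested genes for other matricellular proteins, the class of secreted regulators to which thrombospondin 1 belongs, 0 were called in KO or WT, and their median log2 fold change was -0.06 in KO and 0.98 in WT. In WT this median lay near that of the mesothelial and fibroblast markers, 1.1, whose highest sum, 1547 CPM, was in WT R300 3. In KO it did not, as the marker median was 0.41. There 15 of 16 tested markers were positive, against 5 of 12 matricellular genes. Sparc stands in both lists, and the part of mesothelial cells and fibroblasts was not tested. Fn1, Lgals3 and Spp1 were the most abundant. Fn1 (fibronectin) averaged 21740 CPM in KO R300 against 17560 CPM in KO blank, and 12230 CPM in WT R300 against 12450 CPM in WT blank. Lgals3 (galectin 3) averaged 2893 CPM in KO R300 against 3038 CPM in KO blank, and 3661 CPM in WT R300 against 3357 CPM in WT blank. Spp1 (osteopontin) averaged 2093 CPM in KO R300 against 2246 CPM in KO blank, and 2284 CPM in WT R300 against 2101 CPM in WT blank. In these pathway lists edgeR called 0 genes between genotypes and 0 for the interaction.

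**Figure D5:**
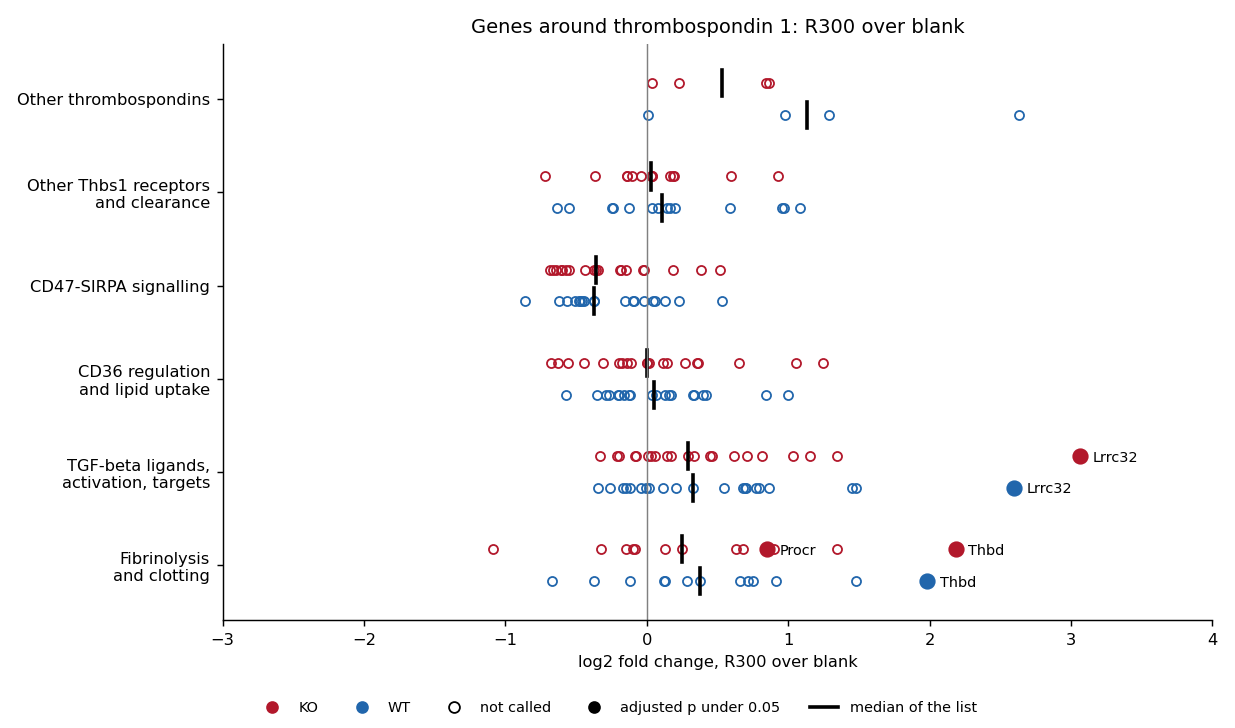
Fitted log2 fold changes, R300 over blank, of the genes in 6 lists around thrombospondin 1, with KO (red) above WT (blue) in each list; filled points passed an adjusted p under 0.05 and black ticks are list medians. The filled points are Lrrc32 at 3.06 in KO and 2.60 in WT, Thbd at 2.18 and 1.98, and Procr at 0.85 in KO.

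Over the 12 libraries, the tested genes whose log2 CPM tracked Thbs1 most closely, among 12094 with a mean count of at least 20, were Impdh1 (Pearson r = 0.992), Castor1 (0.99), Tlr5 (0.984), Uck2 (0.984), Homer1 (0.984) and Thbd (0.982). These correlations hold the R300 shift shared by many genes, and the libraries share the Xist split and the near-alike pairs. After subtracting each group's mean, r with Thbs1 was 0.961 for Impdh1, 0.966 for Castor1, 0.9 for Tlr5, 0.971 for Uck2, 0.965 for Homer1 and 0.88 for Thbd. Uck2, an enzyme of pyrimidine salvage, averaged 97.3 CPM in KO R300 against 25.2 CPM in KO blank, and 69.4 CPM in WT R300 against 20.6 CPM in WT blank, which is the order of Thbs1. Impdh1, an enzyme of guanine nucleotide synthesis, averaged 106 CPM in KO R300 against 51.2 CPM in KO blank, and 93.1 CPM in WT R300 against 48.0 CPM in WT blank.

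For the receptors, Cd36 was tracked most closely by Nras (r = 0.92), Map1lc3b (0.915) and Dbi (0.913), and Cd47 by Atp11b (0.935), Supt7l (0.897) and Tgif1 (0.897). Sirpa was tracked by Tlk1 (0.984), Leng8 (0.977) and Cln3 (0.976). Tlk1, a nuclear kinase, averaged 70.7 CPM in KO R300 against 86.2 CPM in KO blank, and 71.5 CPM in WT R300 against 89.6 CPM in WT blank. The leading genes were different for each of the 4, but only the highest positive correlations were ranked. Thbs1 itself had r = -0.837 with Sirpa, 0.441 with Cd36 and 0.154 with Cd47. After subtracting each group's mean, these were -0.917, -0.728 and -0.291. All of these correlations are given as descriptions over 12 libraries, which share the Xist split and the near-alike pairs, with no test.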

How the data were processed

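Poly(A) RNA was sequenced in 12 libraries; per the labels' protocols it was selected on oligo(dT) beads and prepared with a NEBNext Ultra kit. The authors deposited raw read counts by gene symbol. The submitters' processing notes list mm10, FastQC 0.12.1, fastp 0.23.4, HISAT2 with version 2, featureCounts 2.0.3 and DESeq2 1.42.0. Of 35050 rows, 102 had no symbol, held 0.0232% to 0.0328% of each library and stayed out. Counts were fitted in R 4.3.3 with edgeR 4.0.16 (TMM, filterByExpr by group, robust quasi-likelihood test, 12 libraries, 1 mean per group), tested on simulated data, with Benjamini-Hochberg adjustment over 16546 genes. The common biological coefficient of variation was 0.267, and gene models were those of GENCODE M21. The genes and lists were chosen with earlier results of these data known. Named genes are the members, Ern1, up to 3 per pathway list by lowest p, the 3 most abundant of a marker list, and the closest patterns; a gene that this rule names is not reported here. Lrp1, Plin2, Tgfb1, Fn1, Lgals3, Spp1, Sparc, Adgre1, Itga2b, Gp5, Gp6, Gp9, Tubb1, Clec1b and Rab27b fall outside that rule, picked with their values known. Same-numbered blank libraries deviated together (r = 0.514, 0.535 and 0.558, KO against WT), while same-numbered libraries of the other comparisons did not all do so. Libraries of different number were not compared, and both blank libraries numbered 3 were without Xist. These values therefore cannot show that blank libraries pair by number. With a replicate block in the blank groups, Thbs1 had a log2 difference of 0.72 (edgeR adjusted p = 0.989), and the block changed no call there.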

Additional observations from a re-analysis of the deposited data

How the results depend on the processing

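The alternatives were DESeq2, other size factors, library totals, Thbs1 left out of normalisation, no count filter, only the compared groups, a replicate block, a term for libraries without Xist, only libraries with Xist, 1 library of each near-alike pair and each library left out. The 3 receptors were called under none of these settings, and neither was Thbs1 between genotypes by edgeR or DESeq2. Gene counts moved more. For R300 against blank they were 138 in KO and 103 in WT in the edgeR fit, 442 and 363 with DESeq2, 43 and 41 with only the compared groups, 450 and 347 with the Xist term, 290 and 242 with only libraries with Xist, 34 and 28 with 1 of each near-alike pair, and 45 to 171 in KO and 32 to 135 in WT as single libraries were left out. For KO against WT the edgeR count of 0 became 4 in blank and 14 in R300 libraries with DESeq2, 1 in each without the filter and 1 in blank libraries with the Xist term; the cause was not tested.

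Directions turned for differences near 0, with each library left out in turn. The Cd47 change in WT ran from -0.084 to 0.21, the Sirpa difference of blank KO and blank WT from -0.15 to 0.050, and that of R300 KO and R300 WT from -0.18 to 0.25. The R300 response of KO less that of WT ran from -0.52 to 0.29 for Thbs1, -0.024 to 0.13 for Cd36, -0.085 to 0.20 for Cd47 and -0.12 to 0.32 for Sirpa. The genotype difference over both treatments ran from 0.40 to 0.93 for Thbs1 (exact permutation p from 0.03 to 0.37) and from -0.10 to 0.086 for Sirpa. The Sirpa difference of R300 KO and R300 WT was 0.0073 with the Xist term and 0.085 with only libraries with Xist, where that over both treatments was 0.015. The cause was not tested.

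The replicate block in the fit of 12 libraries called 141 genes in KO and 119 in WT for R300 against blank, and 0 in the other comparisons. Of the calls named here it ended that of Procr in KO (edgeR adjusted p = 0.0829) and changed no other. The settings for Lrrc32, Thbd and Procr, the block in the blank groups alone and those of the permutation test were chosen after seeing the data. With 3 libraries a group, differences inside the 95% intervals given for the receptors were not excluded.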
